A study of Mus musculus with 33 samples.

Results

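Liver tumours of mice with an E2F3b knock-in (3bKI) were compared with liver of wild-type mice (wt) across 18193 genes. The members were the arrays titled 3bKI and wt in the second of the 2 normalizations of the deposited table, 4 tumours and 7 wild-type livers, which are 11 of its 33 columns. All mice were 12 months old and on a mixed background of FVB/NT, 129S1/Svlmj and C57BL/6NT. The wt livers were normal, and the 3bKI samples were hepatocellular carcinomas that had arisen spontaneously. The same normalization holds 5 normal livers of E2f3a knock-out mice (3aKO), and the other holds 5 spontaneous hepatocellular carcinomas of E2F1 knock-in mice (1KI); both are used here only for values set beside those of the 3bKI tumours. Genotype and tumour status coincide in 3bKI, so their parts in a difference from wt cannot be told apart. The locus and promoter of the knock-in are not given in the sources used here. Nothing in the labels says that arrays of a group came from separate mice, so the p-values measure the spread between these samples.

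E2F proteins are transcription factors, most of which bind DNA together with a DP partner. Some of them switch on genes for DNA synthesis and cell division. The pocket proteins Rb, p107 (Rbl1) and p130 (Rbl2) bind E2F proteins and hold these genes down in resting cells. The E2f3 gene makes E2F3a and E2F3b from separate promoters. Hepatocytes of the adult liver rarely divide, and hepatocellular carcinoma is the tumour that arises from them.

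Median log2 values of the 16 arrays of this normalization lay between 5.34 and 5.43. The labels give no sex, so it was read from Xist, the RNA that silences an X chromosome in females, and from 3 Y-linked genes. The wt livers were 3 females and 4 males. Tumours 1, 3 and 4 were female, with Xist at 12.71, 12.61 and 12.35 on the log2 scale. Tumour 2 was unclear, with Xist at 6.56, as low as in the males, and a mean of the Y-linked genes of 3.16, as low as in the females. In tumour 2 the liver genes that are higher in females stood at a median of 0.53 above the wt mean. This lay below the 3 wt females (1.15 to 1.24) and above the 4 wt males (-1.66 to -0.77). Liver genes that are higher in males stood at -1.51 in tumour 2. That value lay inside the range of the wt females (-1.76 to -0.80) and below the wt males (0.76 to 1.15). As a sign of RNA quality, the 3' control of beta-actin exceeded its 5' control by a log2 difference that ran from 0.698 to 0.874 in 3bKI and from 0.654 to 1.37 in wt. Wt livers 1 to 5, at 1.15 to 1.37, lay above all 4 tumours, while wt livers 6 (0.876) and 7 (0.654) lay near or among them. This measure moved with the group, and its part in the results was not tested. On the first principal component, with 29.8% of the variance, the tumours lay at 16.31 to 38.48 and the wt livers at -31.79 to 14.04. This component also split the sexes, with wt males at -31.79 to -4.87 and wt females at 0.94 to 14.04. Tumour 2 stood apart on the second component, at 39.85 against at most 25.29 on the other arrays, and had the lowest mean correlation with the wt livers (0.972).

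**Figure D1:**
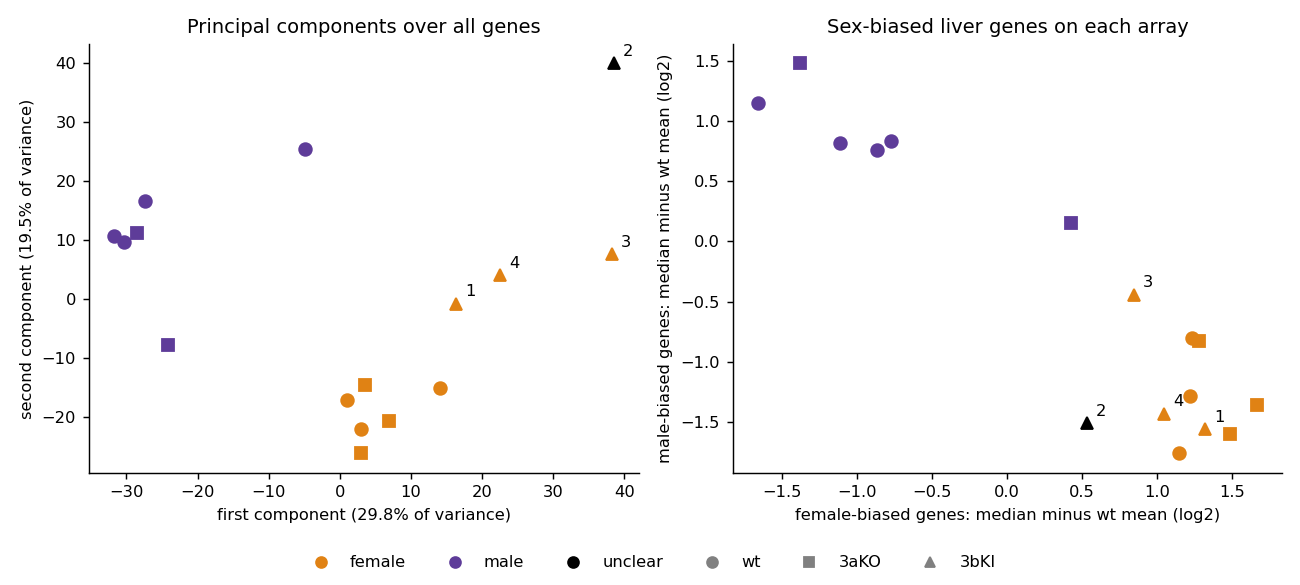
Left, the first (x) and second (y) principal component of the 16 arrays of this normalization over 18193 genes. Right, the median of the female-biased (x) and male-biased (y) liver genes on each array, as log2 difference from the wt mean; colour gives the sex read from Xist and Y-linked genes, shape the group, and the numbers mark tumours 1 to 4. The 4 tumours lie to the right of all wt livers on the first component (16.31 to 38.48 against at most 14.04), and tumour 2 is the highest array on the second (39.85).

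In 3bKI tumours 199 of the 18193 genes were higher than in wt (1.09%) and 178 were lower (0.978%) at an adjusted p under 0.05 in limma with Benjamini-Hochberg adjustment, which is what "called" means throughout. The share of called members in each list below is to be read beside these shares of all genes. Increases were larger than decreases: 72 of the genes called higher and 23 of those called lower differed at least 2-fold. The median change over all genes was 0.01 on the log2 scale, and 9653 genes lay above 0. All 4 tumours lay above all 7 wt livers for 346 genes (1.9%) and below them for 433 genes (2.38%), 4.28% in all, and 157 and 154 of the called genes did so. An unadjusted p under 0.05 was found for 3778 genes (20.8%). With each array centred on its median, which moved the median of all genes to -0.06, 197 genes were higher and 548 lower.

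**Figure D2:**
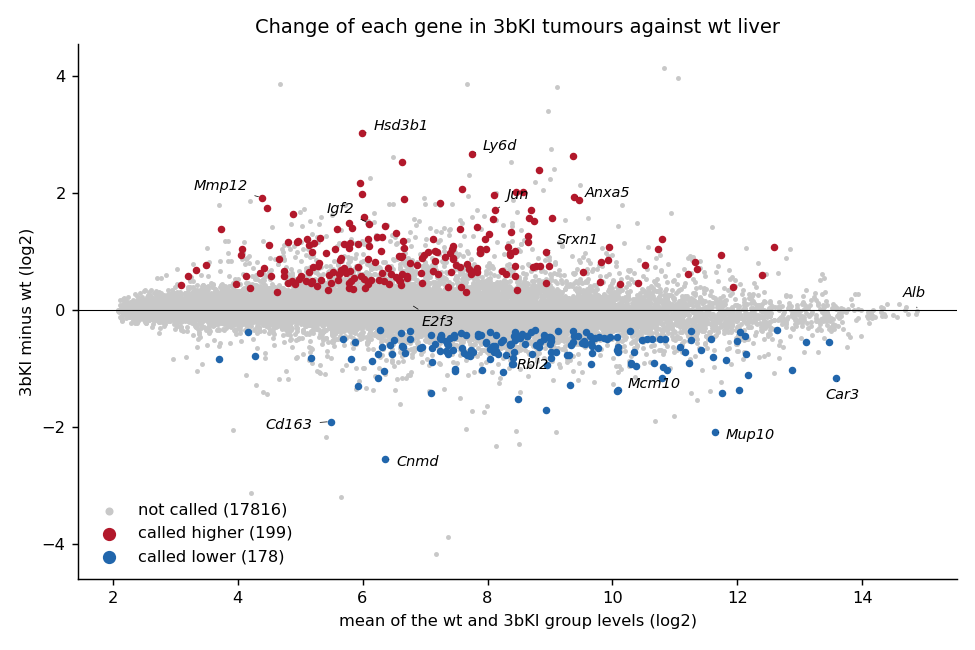
Difference between 3bKI and wt (y, log2) against the mean of the 2 group levels (x, log2) for each of 18193 genes. Red points are the 199 genes called higher, blue points the 178 called lower and grey points the rest. The largest called increase is that of Hsd3b1 (3.02) and the largest called decrease that of Cnmd (-2.54), and Alb lies near 0 (-0.02).

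The number of calls depended on single arrays. Without tumour 3 there were 33 higher and 16 lower, without tumour 4 71 and 43, and without tumour 2 127 and 37. Without any 1 of wt livers 1 to 5 there were 65 to 77 higher and 28 to 50 lower. Without wt liver 6, wt liver 7 or tumour 1 the numbers were larger, with 226, 354 and 347 higher and 272, 494 and 254 lower. In all 11 fits that left out 1 array, 27 of the genes called higher and 10 of those called lower kept their call. The 27 include Igf2, Sox4, Jun, Klf6, Srxn1, Anxa2, Anxa5, Mmp12, Tnc, Fstl1, Cldn7, Bicc1, Plagl1 and Sae1. The 10 include Car3, Cnmd, Cadps2, Lin7a and Hc, the gene of complement C5. With sex as a covariate and without tumour 2, 31 and 8 of the genes kept their call, and in the 3 female tumours against the 3 female wt livers 4 and 1 did (Mmp12, Nudt18, Tinag and Tmem43 higher, Car3 lower). Every called gene had the same direction in the female arrays alone, which says little, since the genes were called on these same arrays. Wherever sex as a covariate is named below, tumour 2 was left out as well. The tumours left were all female, so the changes in that fit equal those of the female arrays alone. The parts of sex and of the missing tumour 2 in each single gene were not tested beyond these values.

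E2f3 itself was at 6.82 ± 0.20 (SD, n = 4) in 3bKI and 6.71 ± 0.19 (SD, n = 7) in wt. It read 6.58, 7.01, 6.95 and 6.73 in tumours 1 to 4, against 6.42 to 6.94 (median 6.80) in wt, so the groups overlapped (log2 change 0.10 ± 0.12 SE, limma adjusted p = 0.660). A second, dimmer probe set of E2f3 gave 5.58 against 5.18, a difference of 0.40 ± 0.11 (SE) with an adjusted p of 0.0775 when limma tested every probe set, and its groups did not overlap. Whether either probe set lies in the knocked-in part is not given in the sources used here, so neither checks the allele. E2f1 differed by 0.24 ± 0.11 (SE, limma adjusted p = 0.263) and E2f2 by 0.18 ± 0.14 (SE, limma adjusted p = 0.495), with overlapping groups in both. A dimmer E2f1 probe set differed by 0.30 with no overlap (limma adjusted p over every probe set 0.121). Of the 26 genes of the E2F and pocket protein list, 19 lay above 0 with a median of 0.19, and 1 was called. That gene was Rbl2, which encodes the pocket protein p130 and was lower in all 4 tumours. Rbl2 read 8.25, 7.65, 7.78 and 7.97 in tumours 1 to 4 and 8.47 to 9.10 (median 8.65) in wt, a change of -0.77 ± 0.13 (SE, limma adjusted p = 0.0206). The groups did not overlap, the call held in 10 of the 11 fits without 1 array and was lost without tumour 3 or with sex as a covariate (-0.59, limma adjusted p = 0.169). Among the members that were not called, Cdkn2c, an inhibitor of the cyclin D kinases, had a change of 1.00 (limma adjusted p = 0.0512), and Ccnd1, cyclin D1, one of 1.48 (limma adjusted p = 0.216).

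Genes of mitosis were higher as a group, but very unequally between tumours. Of 59 measured genes 58 lay above 0, with a median change of 0.59 against 0.01 over all genes, yet only Espl1 was called (1.69% of the list). Espl1, which encodes the separase that cuts cohesin at anaphase, read 4.71, 5.21, 4.87 and 4.56 in the tumours and 4.11 to 4.56 (median 4.21) in wt, a change of 0.59 ± 0.12 (SE, limma adjusted p = 0.0364). Tumours 1 to 3 lay above all wt livers, and tumour 4 was level with the highest of them. With sex as a covariate the change of Espl1 was 0.35 (limma adjusted p = 0.266). The median of the list stood at 0.13, 1.43, 0.59 and 0.16 above the wt mean in tumours 1 to 4, with the single wt livers between -0.11 and 0.15. Tumours 2 and 3 had 52 and 41 of the 59 genes above the wt range, and tumours 1 and 4 had 16 and 14. Over all 18193 genes the same counts were 3126, 3530, 3060 and 2787, or 17.2%, 19.4%, 16.8% and 15.3%. Tumour 2 held the highest value of the 4 tumours for 52 of the genes. The median change was 0.28 without tumour 2 and 0.23 in the female arrays alone, where 52 members lay above 0. The number of calls was 6 without tumour 1, 2 without wt liver 6, and 0 without tumour 2, tumour 3 or wt liver 1, 3, 4 or 5.

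Single genes showed the same order of tumours. Mki67, the Ki-67 antigen of dividing cells, read 4.30, 8.33, 6.71 and 5.16 in tumours 1 to 4 against 3.97 to 5.13 (median 4.60) in wt. Cdk1, the kinase that drives entry into mitosis, read 6.20, 9.61, 7.84 and 6.76 against 5.44 to 6.56 (median 6.08). Ccnb2, cyclin B2, read 4.39, 8.69, 7.00 and 5.23 against 4.45 to 5.47 (median 4.62) and was chosen after its values were seen. In each of the 3 genes tumour 1 did not exceed the wt range and tumours 2 and 3 lay above it. With this spread none was called: the change of Mki67 was 1.59 ± 0.58 (SE, limma adjusted p = 0.150), that of Cdk1 1.55 ± 0.49 (SE, limma adjusted p = 0.110) and that of Ccnb2 1.62 ± 0.62 (SE, limma adjusted p = 0.165). In bulk tissue, more dividing cells and more RNA of these genes per cell cannot be told apart.

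Most promoters of the mitosis list, though not all, carry words by which division genes are known. Promoters of 250 bases before to 50 bases after the start site were taken from RefSeq (GRCm38.p6) for 14449 of the measured genes. Both strands were searched for an E2F word (TTT, then 2 bases each C or G, then CGC), for TTTGAA, the core of the cell cycle homology region, and for CCAAT, the box bound by NF-Y. The cell cycle homology word stood in 35 of 49 mitosis promoters (71.4%) and in 15.7% of all promoters, and CCAAT in 75.5% and 42%. An E2F word stood in 3 of the 49 (6.12%), in 15 of 37 promoters of the DNA replication list (40.5%) and in 3.81% of all promoters. Among the genes called higher it was found in 8 of 144 (5.56%) and among those called lower in 2 of 142 (1.41%); Plagl1, an imprinted zinc finger gene with a change of 0.91, is one of the 8. A match is a description of these windows and shows no binding. The promoter of Espl1, the called member, is shown with those of Cdk1 and Ccnb2, which were picked with their values known, at chr15:102296043-102296342 (plus strand), chr10:69352863-69353162 (minus strand) and chr9:70421505-70421804 (minus strand). Capitals mark the words found, on either strand, where ATTGG is CCAAT read on the other strand.
Espl1: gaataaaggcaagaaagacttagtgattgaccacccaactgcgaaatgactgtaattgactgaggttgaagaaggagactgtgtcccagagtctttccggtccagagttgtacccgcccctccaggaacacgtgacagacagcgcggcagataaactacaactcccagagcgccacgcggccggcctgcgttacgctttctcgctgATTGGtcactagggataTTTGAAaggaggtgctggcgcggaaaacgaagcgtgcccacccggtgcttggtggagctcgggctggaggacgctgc
Cdk1: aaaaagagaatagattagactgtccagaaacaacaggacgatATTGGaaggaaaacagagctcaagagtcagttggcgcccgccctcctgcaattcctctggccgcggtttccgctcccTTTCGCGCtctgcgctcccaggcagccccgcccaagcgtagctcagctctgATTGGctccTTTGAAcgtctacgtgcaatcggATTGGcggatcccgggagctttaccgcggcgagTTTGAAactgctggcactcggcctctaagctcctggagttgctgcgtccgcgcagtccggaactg
Ccnb2: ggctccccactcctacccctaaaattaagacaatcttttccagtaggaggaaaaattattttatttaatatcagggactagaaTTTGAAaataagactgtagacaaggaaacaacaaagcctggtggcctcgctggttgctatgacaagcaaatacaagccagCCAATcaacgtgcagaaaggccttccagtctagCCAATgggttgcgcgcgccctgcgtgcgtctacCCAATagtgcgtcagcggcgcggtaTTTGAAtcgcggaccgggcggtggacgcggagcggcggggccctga
Espl1 holds 1 cell cycle homology word at position -27 counted from the start and 1 CCAAT box, and no E2F word. Cdk1 holds 1 E2F word that begins at position -131 counted from the start, 2 cell cycle homology words and 3 CCAAT boxes. Ccnb2 holds 2 cell cycle homology words and 3 CCAAT boxes, and no E2F word. The promoter of Birc5, another mitosis gene, was searched as well and held none of these words. Birc5 read 4.20, 8.56, 6.40 and 4.18 in tumours 1 to 4 against 3.48 to 4.83 in wt.

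**Figure D3:**
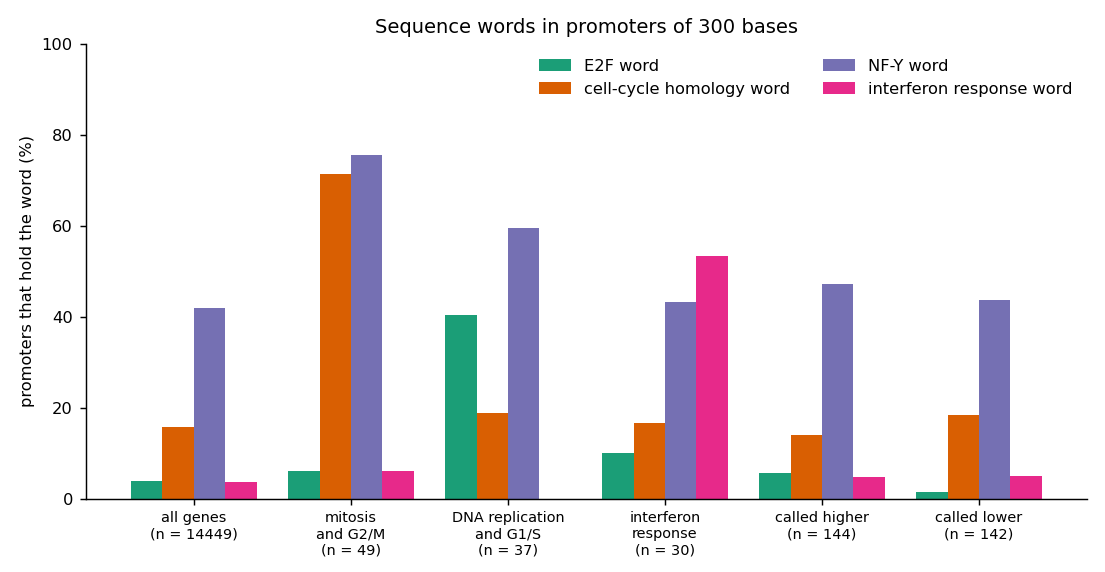
Share of promoters (y, percent) that hold each of 4 sequence words on either strand, for all measured genes with a promoter, 3 gene lists and the genes called higher or lower in 3bKI; n is the number of promoters. The cell cycle homology word stands in 71.4% of the mitosis promoters, the E2F word in 40.5% of the DNA replication promoters and the interferon response word in 53.3% of the interferon promoters.

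Genes of DNA replication and the G1/S step moved less than those of mitosis. Of 47 measured members 36 lay above 0, the median was 0.11, and the only called member was lower. In tumour 2 the list stood at 0.40 above the wt mean, and in the other tumours at -0.08, 0.12 and 0.08, inside the wt range of -0.16 to 0.16. In the female arrays alone the median was -0.04. The called member was Mcm10, an initiation factor that joins the replicative helicase. It read 9.65, 9.06, 9.35 and 9.46 in the tumours and 10.17 to 11.53 (median 10.64) in wt, a change of -1.39 ± 0.26 (SE, limma adjusted p = 0.0252) with no overlap. The wt level was higher in males (11.12) than in females (10.30), and with sex as a covariate the change was -0.81 (limma adjusted p = 0.165). A second Mcm10 probe set fell by 1.10 and another, dimmer one differed by 0.03. Mcm6, a subunit of the helicase itself, read 6.14, 8.29, 7.51 and 6.32 against 4.90 to 7.33 in wt and was not called (limma adjusted p = 0.407).

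Markers of fetal liver and of hepatocellular carcinoma were higher in the tumours. Of 29 measured members 27 lay above 0 with a median of 0.79, and 5 were called higher (17.2% of the list): Ly6d, Lgals1, Igf2, Sox4 and Dlk1. Igf2, a fetal growth factor that is silent in adult mouse liver, read 6.41, 6.78, 7.80 and 6.42 in tumours 1 to 4 and 4.89 to 5.65 (median 5.45) in wt. All 4 tumours lay above all wt livers, by 2.79-fold on average (log2 change 1.48 ± 0.24 SE, limma adjusted p = 0.0192). Sox4, a transcription factor of progenitor cells, read 7.30, 7.85, 7.36 and 7.28 against 6.34 to 6.64 (median 6.53), a change of 0.94 ± 0.11 (SE, limma adjusted p = 0.00503). Of the other 7 Sox4 probe sets, 4 differed by 0.87 to 2.40 with no overlap and 3 by 0.08 to 0.13 with overlapping groups. Tumour 2 was the highest, and the call of Sox4 held without any 1 array and with sex as a covariate.

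Ly6d, a surface protein of the Ly6 family, had the largest called change of the list, 6.38-fold. It read 8.71, 8.86, 9.84 and 8.92 in the tumours against 5.41 to 7.97 (median 6.24) in wt, and all tumours lay above the wt range (log2 change 2.67 ± 0.42 SE, limma adjusted p = 0.0172). With sex as a covariate Lgals1, a galectin, differed by 0.89 in place of 1.53. Dlk1, a Notch-related protein of hepatoblasts, rose by 0.67 ± 0.14 (SE, limma adjusted p = 0.0364), with tumours 1 and 3 highest. Afp, alpha-fetoprotein, missed the threshold on its brightest probe set, with 6.19, 6.80, 6.32 and 8.11 in the tumours and 5.27 to 6.00 (median 5.57) in wt (limma adjusted p = 0.0522). Of its 4 dimmer probe sets, 1 went from 3.02 to 6.15 with no overlap (limma adjusted p over every probe set 0.00371), and the other 3 differed by 1.12, 0.56 and 0.10 with overlapping groups. These levels are low, and no detection call was used here, so the sizes of such changes are uncertain. Gpc3, glypican 3, was high in tumour 2 alone, at 8.37 against 4.73 to 5.02 in the other tumours and 4.47 to 4.90 in wt. Prom1, a surface marker of progenitor cells, had a mean difference of 3.87 but depended on sex in wt, with 6.90 to 8.93 in females and 3.59 to 4.23 in males, and the females reached past tumour 1 at 7.95 (limma adjusted p = 0.0864). The number of called members was 8 without tumour 1, 2 without tumour 3, 3 without tumour 4 or any 1 of wt livers 1 to 5, and 1, Sox4, with sex as a covariate.

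**Figure D4:**
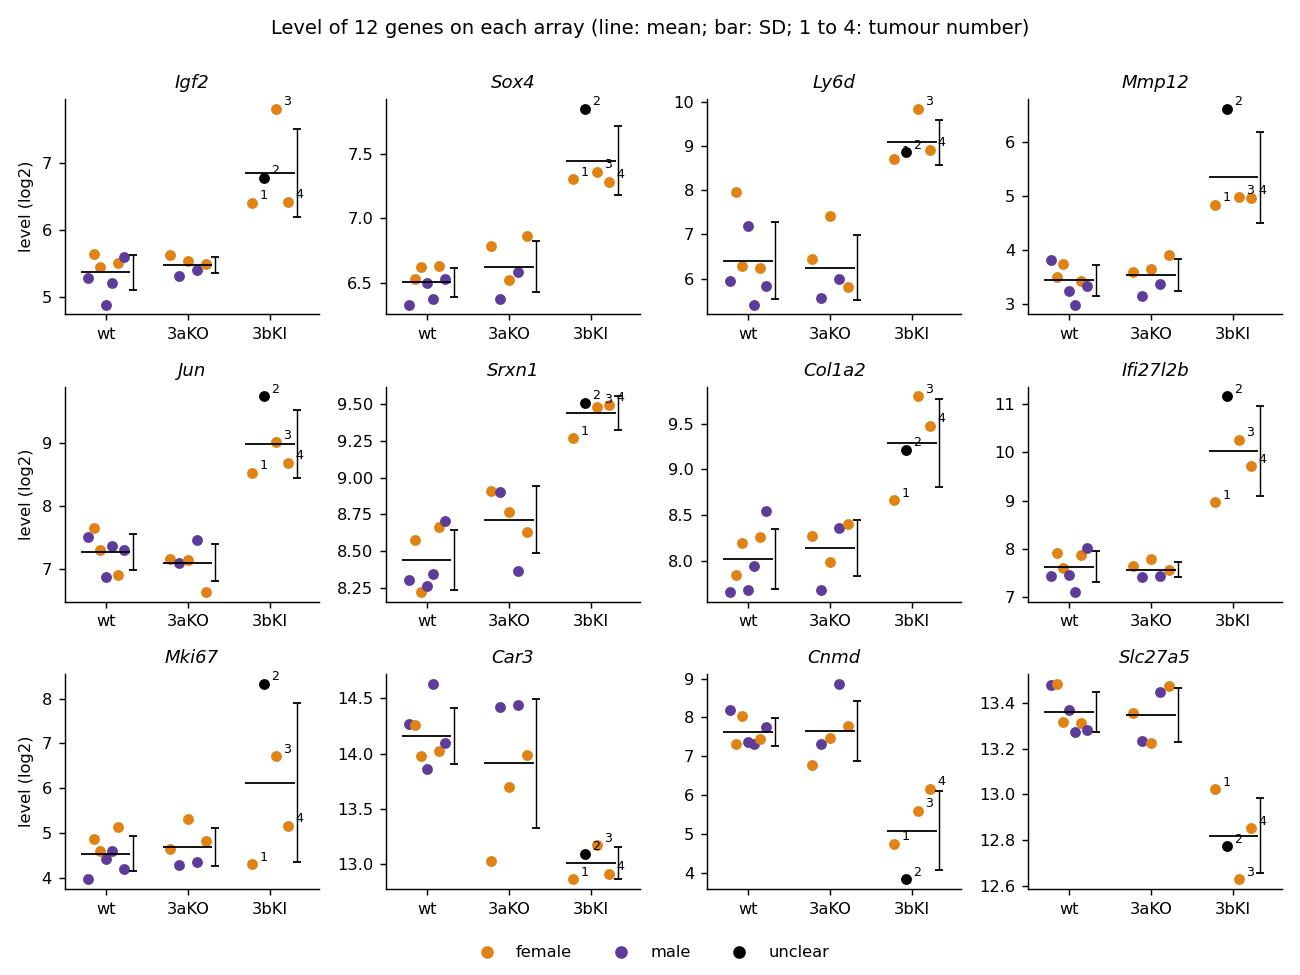
Level (y, log2) of 12 genes on each array of wt, 3aKO and 3bKI; each point is 1 array, the line is the group mean, the bar its SD, the colour the sex read from the arrays, and the numbers mark tumours 1 to 4. Igf2, Sox4, Ly6d, Mmp12, Jun, Srxn1, Col1a2 and Ifi27l2b are higher in all 4 tumours than in all wt livers and Car3, Cnmd and Slc27a5 lower, while Mki67 is above the wt range only in tumours 2, 3 and 4.

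Several of the largest increases were of genes outside these lists. Hsd3b1, a steroid dehydrogenase, had the largest called increase, 8.1-fold, with 5.92, 9.15, 8.01 and 6.95 in the tumours against 3.62 to 5.54 (median 4.37) in wt (limma adjusted p = 0.0206). The normal 3aKO livers 1 and 3, both female, read 7.26 and 7.89, above tumours 1 and 4. The wt females lay higher than the wt males (means 5.09 and 4.04). With sex as a covariate and without tumour 2, the highest for this gene, the change was 1.87 in place of 3.02 (limma adjusted p = 0.0984). Slpi, a secreted inhibitor of leukocyte proteases, rose by 2.63 ± 0.59 (SE, limma adjusted p = 0.0450), and its tumours ran from 8.94 to 12.72, highest in tumour 2. Its call was kept in 3 of the 11 fits without 1 array. With sex as a covariate and without tumour 2 the change of Slpi was 1.72 (limma adjusted p = 0.231). Pls1, an actin-bundling plastin, rose by 2.07 and Smoc2, a matricellular protein, by 1.89; both kept their call with sex as a covariate, where Pls1 differed by 1.20 and Smoc2 by 2.21. Pls1 was also higher in wt females than in wt males (limma adjusted p = 0.00313). Pglyrp1, a protein that binds bacterial cell walls, rose by 1.64 ± 0.18 (SE, limma adjusted p = 0.00503), with 5.31 to 6.28 in the tumours and 3.76 to 4.42 in wt. Mtmr11 (2.53), Nid1 (2.02), Itih5 (1.99), Tceal8 (1.97) and Plppr1 (1.74) rose as well. None of these 5 kept its call with the sex covariate and without tumour 2, where Mtmr11 differed by 1.64, Nid1 by 1.21 and Tceal8 by 1.29. Tumour 2 was the highest for Mtmr11, Nid1, Itih5 and Tceal8, with Nid1 at 11.36 there. Plppr1 read 4.66, 5.61, 4.93 and 6.14 in the tumours, but also 7.01 and 6.12 in the normal 3aKO livers 1 and 3. Fstl1, a secreted follistatin-like protein, read 6.16, 6.86, 7.35 and 6.91 against 4.64 to 5.67 in wt and kept its call in every fit without 1 array and with sex as a covariate (1.59 ± 0.22 SE, limma adjusted p = 0.00800).

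Immediate early genes are those that cells switch on within minutes of a growth or stress signal. All 25 measured members lay above 0 over the 4 tumours, and 21 in the female arrays alone. Their median was 0.66, and 6 were called higher (24% of the list, against 1.09% of all genes). For 9 members all 4 tumours lay above all wt livers, as for 1.9% of all genes. Jun, a subunit of the AP-1 factor, read 8.52, 9.73, 9.0 and 8.68 in the tumours against 6.88 to 7.65 (median 7.30) in wt, a 3.28-fold increase with no overlap (limma adjusted p = 0.00613). Btg2, an antiproliferative gene that p53 also induces, rose by 2.02, Atf3 by 1.32, Ier3 by 1.14, the transcription factor Klf6 by 0.90 and the secreted protein Ccn1 by 0.87. With sex as a covariate Atf3 differed by 0.74 and Ier3 by 0.72. Fos and Egr1 were not called. Egr1 read 8.87, 12.89, 10.73 and 9.09 against 6.39 to 8.64 in wt (limma adjusted p = 0.0562). Both also reached high values in 3aKO livers, with Egr1 up to 12.41 and Fos up to 10.29. The list median in tumours 1 to 4 was 0.13, 1.14, 0.75 and 0.53. The number of called members was 12 without tumour 1, 2 without tumour 3, 3 or 4 without tumour 2, tumour 4 or any 1 of wt livers 1 to 5, and 1, Jun, with the sex covariate.

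Of 31 p53 target genes 26 lay above 0 with a median of 0.32. Btg2 was the 1 called higher (3.23% of the list, against 1.09% of all genes). That call was lost without tumour 3, tumour 4 or any 1 of wt livers 1 to 5. Cdkn1a, the kinase inhibitor p21 and a classical p53 target, was narrow in the tumours and wide in wt. It read 9.08, 8.88, 9.40 and 9.18 in the tumours and 6.59 to 9.21 (median 7.22) in wt, where the females lay at 6.59 to 7.22 (limma adjusted p = 0.109 over all arrays). In the female arrays alone it rose by 2.29 (limma adjusted p = 0.01), while with sex as a covariate and the same change the adjusted p in limma was 0.0973. Of 32 NRF2 and glutathione genes 23 lay above 0 with a median of 0.22, and 2 were called higher (6.25% of the list). Srxn1, which repairs oxidised peroxiredoxins, read 9.27, 9.51, 9.48 and 9.50 in the tumours and 8.22 to 8.71 (median 8.34) in wt, a 2-fold increase with very little spread (log2 change 1.00 ± 0.11 SE, limma adjusted p = 0.00503). Cbr3, a carbonyl reductase, rose by 0.62 ± 0.12 (SE, limma adjusted p = 0.0330).

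The list of matrix remodelling and tumour invasion genes, which also holds keratin, tubulin and annexin genes, had the most calls. Of 30 measured members 29 lay above 0 with a median of 0.73, and 11 were called higher (36.7% of the list): Anxa5, Mmp12, Anxa2, Tubb6, Vim, Timp1, S100a6, Tagln2, Mmp14, Krt8 and Tuba1a. Anxa5, a calcium-dependent phospholipid binder, read 9.60, 11.11, 10.88 and 9.79 in the tumours against 8.08 to 8.58 (median 8.51) in wt, a 3.81-fold increase (limma adjusted p = 0.00774). The normal 3aKO livers 3 and 5 read 9.72 and 9.49 for Anxa5, near tumour 1. Mmp12, the macrophage metalloelastase, read 4.84, 6.62, 4.98 and 4.97 against 2.98 to 3.82 (median 3.42), a change of 1.92 ± 0.30 (SE, limma adjusted p = 0.0164). Mmp12 was dim in wt, and without a detection call the size of its change is uncertain. The 3bKI and wt groups did not overlap for Anxa5 or Mmp12, and Mmp12 was also called in the female arrays alone. Krt8, a keratin of hepatocytes, rose by 0.70 and Mmp14, a membrane-bound collagenase, by 0.75. The number of called members was 3 without tumour 3 or tumour 4, 6 without tumour 2, 4 or 5 without any 1 of wt livers 1 to 5, and 4 with the sex covariate.

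Collagens and other stellate cell and fibrosis genes were higher too. Of 26 members 25 lay above 0 with a median of 0.76, and 9 were called higher (34.6%): Col3a1, Col4a1, Col1a2, Col1a1, Col4a2, Timp1, Tagln, Col6a3 and Eln. Col1a2, a chain of type I collagen, read 8.66, 9.22, 9.80 and 9.48 in the tumours against 7.67 to 8.55 (median 7.95) in wt, a change of 1.27 ± 0.21 (SE, limma adjusted p = 0.0206). Col4a1, a chain of the basement membrane collagen, rose by 1.57 ± 0.26 (SE, limma adjusted p = 0.0195), with 8.65 to 10.31 in the tumours and 7.60 to 8.16 in wt. The medians of the list in tumours 1 to 4 were 0.54, 0.30, 1.02 and 0.88, all above the wt range of -0.21 to 0.12. The calls depended on tumour 3, without which the median was 0.70 and none of the 9 was called; without tumour 4 or any 1 of wt livers 1 to 5 there were 2 or 3 calls. Of the 5 stellate markers set aside to read cell types, only Col1a1 was called, while Lrat, the retinol storage enzyme of quiescent stellate cells, read 8.31, 5.57, 6.67 and 8.20 against 6.32 to 8.07 in wt. Of 14 cholangiocyte and progenitor markers 12 lay above 0 with a median of 0.41, and 3 were called higher (21.4%, against 1.09% of all genes). They were the tight junction gene Cldn7 (1.16), the cilium gene Pkhd1 (1.13) and the RNA-binding protein Bicc1 (0.92). The defining cholangiocyte markers Krt7, Krt19, Epcam and Sox9 were not called, and Sox9 differed by -0.06.

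Interferon response genes were higher on average and far higher in tumour 3. Of 42 measured members 39 lay above 0 with a median of 0.56, and 6 were called higher (14.3%): Ifi27l2b, Usp18, Oas1a, Oasl1, Ifi27 and Lgals3bp. Ifi27l2b read 8.96, 11.17, 10.26 and 9.71 in the tumours and 7.10 to 8.02 (median 7.59) in wt, a 5.28-fold increase (limma adjusted p = 0.008) that held without any 1 array and with sex as a covariate. Usp18, which removes the ubiquitin-like ISG15, read 7.33, 8.40, 8.61 and 8.26 against 5.58 to 7.24 (median 5.96), a change of 1.84 ± 0.38 (SE, limma adjusted p = 0.0341). Oas1a, an enzyme that senses double-stranded RNA, read 7.71, 9.65, 9.57 and 8.54 against 6.78 to 7.89 (median 7.24), with tumour 1 inside the wt range (limma adjusted p = 0.0450). Tumour 3 had 39 of the 42 members above the wt range and the highest value of the 4 tumours for 38. The list median in tumours 1 to 4 was 0.04, 0.49, 1.56 and 0.13, and single wt livers ran from -0.44 to 0.47, with 2 of the 3 wt females at the top. Without tumour 3 the median was 0.25, and with sex as a covariate it was 0.20; Ifi27l2b was then the 1 call. Without tumour 2, tumour 4 or any 1 of wt livers 1 to 5 there were 1 or 2 calls, and without wt liver 6 there were 9.

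The interferon-stimulated response element, taken as GAAA, any 2 bases and GAAA again on either strand, stood in 16 of 30 promoters of the list (53.3%) and in 3.63% of all promoters. The promoter of Oas1a is shown as the called member of largest change that holds it (RefSeq, GRCm38.p6, chr5:120907476-120907775, minus strand), with its overlapping pair of matches in capitals.
Oas1a: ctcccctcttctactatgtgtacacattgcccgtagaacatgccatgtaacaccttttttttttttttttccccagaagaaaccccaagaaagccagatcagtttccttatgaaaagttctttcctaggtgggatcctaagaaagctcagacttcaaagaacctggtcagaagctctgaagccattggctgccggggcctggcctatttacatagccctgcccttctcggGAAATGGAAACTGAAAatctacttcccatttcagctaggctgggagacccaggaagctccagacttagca
The matches begin at positions -20 and -14 counted from the start site. For Ifi27l2b and Usp18 no promoter was matched.

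Antigen presentation and leukocyte genes moved with the interferon genes in the same tumour. All 16 antigen presentation genes lay above the wt range in tumour 3, where their median was 1.23, against 0.02, 0.17 and -0.03 in tumours 1, 2 and 4. None was called over the 4 tumours, and none had an unadjusted p under 0.05. Macrophage and Kupffer cell markers had medians of 0.05, -0.02, 1.41 and 0.27, with 20 of 23 above the wt range in tumour 3. T and NK cell markers had a median of 0.88 there, with 12 of 16 above the wt range. The Kupffer cell gene Cd5l read 11.85 in tumour 3 against 10.06 to 10.94 in wt, and the chemokine Cxcl10 read 10.28 there against 5.88 to 7.67. The part of leukocyte content in the interferon values was not tested. Against this, Cd163, the haemoglobin scavenger receptor of resident macrophages, was lower in all 4 tumours, at 5.29, 3.24, 4.64 and 5.00 against 5.48 to 7.15 (median 6.64) in wt. Its change was -1.90 ± 0.39 (SE, limma adjusted p = 0.0341), and it kept its call in 4 of the 11 fits without 1 array, being lost without tumour 2, 3 or 4 or any of wt livers 1 to 4.

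**Figure D5:**
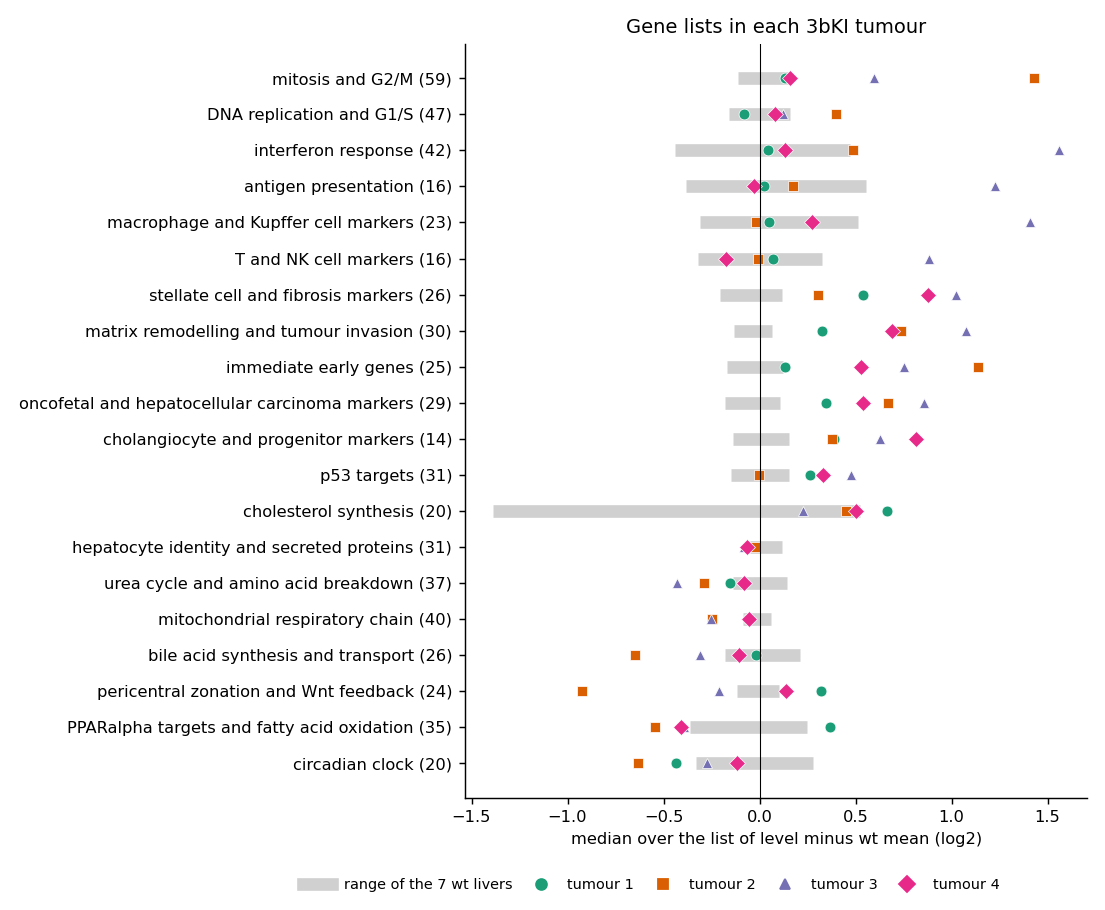
Median over each gene list of the level minus the wt mean (x, log2) in each 3bKI tumour; grey bars span the 7 wt livers and the number of measured genes is in brackets. Tumour 2 is far right for mitosis (1.43) and far left for pericentral genes (-0.92). Tumour 3 is far right for interferon, antigen presentation and macrophage genes (1.56, 1.23 and 1.41). All 4 tumours lie right of the wt range for the stellate list and for the matrix remodelling and invasion list.

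Hepatocyte genes kept most of their level. Alb, albumin, was at 14.87 ± 0.05 (SD, n = 4) in 3bKI and 14.89 ± 0.03 (SD, n = 7) in wt. The list of hepatocyte identity and secreted proteins had a median of -0.07 with none of 31 called. An unadjusted p under 0.05 was found for 7 (22.6%, against 20.8% of all genes). The list medians in tumours 1 to 4 were -0.065, -0.025, -0.083 and -0.065, so tumours 1, 3 and 4 lay just below the wt range of -0.050 to 0.119. Car3, carbonic anhydrase 3, read 12.86, 13.09, 13.17 and 12.91 in the tumours and 13.86 to 14.63 (median 14.09) in wt, a 2.22-fold decrease with no overlap (limma adjusted p = 0.00503). It was called in every fit without 1 array, with sex as a covariate and in the female arrays alone, and its other 3 probe sets differed by -0.47, -2.38 and -2.65. In 3aKO livers, however, 1 female array read 13.03, inside the range of the tumours.

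Cnmd, chondromodulin, an inhibitor of vessel growth, had the largest decrease among the called genes, 5.82-fold. It read 4.76, 3.85, 5.60 and 6.16 in the tumours against 7.32 to 8.20 (median 7.44) in wt (limma adjusted p = 0.00935). Mup10, a major urinary protein, read 11.60, 8.99, 10.79 and 11.02 against 12.22 to 13.26 (median 12.67), a change of -2.08 ± 0.39 (SE, limma adjusted p = 0.0274), and Mup3 fell by 1.42. Probe sets of this gene family may share sequence, so its members cannot be told apart with certainty. Abcc6, a transporter whose loss leads to mineral deposits in soft tissue, fell by 1.28 and Plekhb1 was lower by 3.26-fold. Etfbkmt (-1.51), Sult2a8 (-1.36), Tex12 (-1.29), Il1rap (-1.16), Adam11 (-1.16), Sgms2 (-1.05), Lrtm1 (-1.05), Syne2 (-1.04), Nat8f1 (-1.02), Cadps2 (-1.02) and Ankrd33b (-1.01) were the others among the 20 largest called decreases with no overlap between the groups, beside Mcm10, Tdo2 and Cd163. Il1rap, the shared subunit of interleukin 1 receptors, and Mup3 also differed between wt females and males (limma adjusted p = 0.0110 and 0.0343). With sex as a covariate only Cnmd, Abcc6 and Car3 of the 20 kept their call. The change was then -0.83 for Etfbkmt, -0.71 for Sult2a8, -0.71 for Il1rap, -0.66 for Nat8f1 and -0.59 for Ankrd33b, each over 1.5 times smaller than over all arrays, as was that of Plekhb1.

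Of 37 genes of the urea cycle and amino acid breakdown 35 lay below 0 with a median of -0.28, and 3 were called lower (8.11%): Tdo2, which opens the ring of tryptophan, Aass, the first enzyme of lysine breakdown, and Gstz1, of tyrosine breakdown. Tdo2 read 12.79, 12.13, 11.86 and 12.66 in the tumours against 12.99 to 13.75 (median 13.35) in wt, a change of -1.02 ± 0.19 (SE, limma adjusted p = 0.0250), and its other 2 probe sets differed by -1.17 and -1.26. The list stood at -0.16, -0.29, -0.43 and -0.08 in tumours 1 to 4, so tumour 4 lay inside the wt range of -0.14 to 0.14. Without tumour 2, tumour 3 or wt liver 1, 4 or 5 none of the 3 was called, nor was any with the sex covariate; without tumour 4 or wt liver 2 or 3 there was 1 call. The urea cycle enzymes Cps1 and Otc differed by -0.26 and -0.11, without a call.

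Of 26 bile acid genes 17 lay below 0 with a median of -0.32, and 1 was called. Slc27a5, which couples bile acids to coenzyme A before conjugation, read 13.02, 12.77, 12.63 and 12.85 in the tumours and 13.28 to 13.49 (median 13.32) in wt, a small change with no overlap (-0.54 ± 0.09 SE, limma adjusted p = 0.0172). It kept its call in 10 of the 11 fits without 1 array, and lost it without tumour 3. Slc7a2, a periportal carrier of arginine, fell by 0.97 ± 0.16 (SE, limma adjusted p = 0.0198), the 1 call among 20 periportal genes with a median of -0.19. Its other probe sets had overlapping groups and differed by -1.05, -0.36 and -0.22 (limma adjusted p over every probe set 0.0361, 0.269 and 0.476). Cyp2j5 fell by 0.74 ± 0.14 (SE, limma adjusted p = 0.0250), the 1 call among 33 cytochrome P450 genes with a median of -0.27. Of 40 respiratory chain genes 36 lay below 0 with a median of -0.15. None was called, with 17 at an unadjusted p under 0.05 (42.5%, against 20.8% of all genes). Tumours 2 and 3 (both at -0.25) lay below the wt range of -0.08 to 0.06.

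Pericentral genes, which hepatocytes near the central vein express under Wnt signalling, set the tumours apart from one another. Their median was 0.32, -0.92, -0.21 and 0.14 in tumours 1 to 4 against -0.12 to 0.10 in wt, and over the group it was -0.13 with 1 of 24 called, the amino acid carrier Slc1a4 (0.80 higher). Tumour 2 had 17 of the 24 below the wt range, and tumour 1 had 11 above it. Cyp2e1, an ethanol-oxidising enzyme, read 14.05, 12.39, 13.51 and 13.84 against a median of 14.05 in wt. Glul, glutamine synthetase, read 11.04, 9.64, 10.88 and 10.82 against 10.60 to 11.23. The Wnt feedback gene Axin2 read 7.83 in tumour 1 against 6.73 to 7.30 in wt, and 6.42 in tumour 2. PPARalpha targets and fatty acid oxidation genes had medians of 0.37, -0.54, -0.39 and -0.41 in tumours 1 to 4 against -0.36 to 0.25 in wt. Tumours 3 and 4 thus lay just below the wt range, and tumour 4 was low here though not for the pericentral genes. Tumour 1 held the highest value of the 4 tumours for 31 of the 35. The 1 called member of that list was Pdk4, which shuts off pyruvate oxidation and rose by 1.44 ± 0.29 (SE, limma adjusted p = 0.0317), with 6.98 to 7.22 in the tumours and 4.56 to 6.70 in wt. It kept its call in 3 of the 11 fits without 1 array, and with sex as a covariate the change was 1.03 (limma adjusted p = 0.196).

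In the growth hormone and insulin-like growth factor axis 3 of 23 genes were called. Igf2 and Socs2 were higher (8.70%, against 1.09% of all genes) and Met was lower (4.35%, against 0.978%). Socs2, which damps growth hormone signalling, read 10.17, 10.40, 11.22 and 9.82 against 7.67 to 9.47 (median 8.64) in wt (log2 change 1.88 ± 0.40 SE, limma adjusted p = 0.0366). Met, the receptor of hepatocyte growth factor, read 9.35, 9.43, 9.35 and 9.34 against 9.63 to 10.26 (median 10.07), a change of -0.61 ± 0.12 (SE, limma adjusted p = 0.0329) with almost no spread among the tumours. None of the 3 calls held with sex as a covariate. The list of female-biased genes had a median of 1.00 and male-biased genes one of -1.34 over all arrays, and -0.12 and 0.09 in the female arrays alone. None of the 24 and 17 members was called, with 6 and 8 at an unadjusted p under 0.05 (25% and 47.1%, against 20.8% of all genes).

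Markers of other cell types gave few calls. Hepatocyte markers (5 measured) had mean levels of 14.29 to 14.47 in 3bKI and 14.36 to 14.60 in wt. The 5 markers of macrophages other than Kupffer cells all lay above 0 with mean levels of 6.67 to 7.02 in 3bKI and 6.16 to 6.55 in wt, and none was called. Mean levels of the endothelial (7.74 to 8.34 against 7.74 to 8.02), cholangiocyte, neutrophil, erythroid, pancreatic, fat and muscle markers overlapped between the groups. Apart from Col1a1 no marker of the 13 cell types was called.

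The 3aKO livers share the normalization, and the 4 tumours are the same, so that comparison is no second test; 531 genes were higher in 3bKI than in 3aKO (2.92%) and 1140 lower (6.27%), 9.18% in all. Set beside each other, the changes against wt and against 3aKO were 1.48 and 1.37 for Igf2, 0.94 and 0.82 for Sox4, 1.71 and 1.89 for Jun, -0.77 and -0.94 for Rbl2, -1.15 and -0.91 for Car3 and 1.88 and 0.61 for Socs2. The E2F1 knock-in tumours were normalized apart and set against the wt livers of the same numbers in that normalization. In these tumours Igf2 differed by 1.38, Sox4 by 1.11, Jun by 1.68, Mmp12 by 2.01, Ifi27l2b by 2.46 and Cnmd by -1.83. Values of 3 genes were of another size there: Smoc2 differed by 0.65 in place of 1.89, Tdo2 by 0.04 in place of -1.02 and Slc7a2 by 0.08 in place of -0.97. The difference between the tumour groups was not tested.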

How the data were processed

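Total RNA (5 ug) of each liver or tumour was labelled and hybridised to an Affymetrix mouse expression array, per the labels. The authors deposited 1 value per probe set and array on a log2 scale; the summarisation and normalization methods are not given in the sources used here. Values were used as deposited. Of the probe sets, 34945 had 1 gene symbol in GEO's platform annotation, 932 had several and 9160 had none; each of the 18193 genes was read from its probe set of highest mean. Groups were compared with limma 3.58.1 in R 4.3.3 (lmFit and eBayes, two-sided, Benjamini-Hochberg over all genes). The procedure was tested on simulated data with the same spread in both groups, so groups of unequal spread were not covered. An array was read as female with Xist above 10 and as male with the mean of 3 Y-linked genes above 5 on the log2 scale, each with the other low.

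Named were E2f1, E2f2 and E2f3, a few tumour markers, the 20 largest called changes each way with no overlap, and in each of 41 gene lists up to 6 called members, or the 2 of lowest p. Genes named beyond this were chosen after their values were seen. The members and lists were chosen with earlier results of these data known. The closing section gives other normalizations, filters, probe set rules, fits, sex settings and left-out arrays.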

Additional observations from a re-analysis of the deposited data

Results flagged for a closer look

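In 254 groups of values of the named genes, 17 had 1 array far from the others; chance gives about 1 in 20 such groups. Tumour 2 held 7 of the 17. It was highest for Mmp12 (6.62, the next tumour at 4.98), Gpc3 (8.37, next 5.02), Sox4 (7.85, next 7.36) and Met (9.43, next 9.35). It was lowest for Xist (6.56, next 12.35), Ugt2b1 (11.01, next 11.66) and the proteasome subunit Psmc1 (9.07, next 9.37). Tumour 1 was lowest for Srxn1 (9.27, next 9.48) and tumour 4 for Mlxipl (10.56, next 10.89). In wt, liver 7 was highest for Col3a1 (8.71, next 7.95), Col1a1 (6.34, next 5.50) and Psmb2 (10.29, next 9.93). Liver 6 was highest for Oasl1 (7.98, next 6.92) and Tubb6 (7.84, next 7.45), liver 1 for Atm (7.95, next 7.74) and Rbl2 (9.10, next 8.72), and liver 4 for Cadps2 (9.02, next 8.43).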

How the results depend on the processing

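Against 199 genes higher and 178 lower in 3bKI than in wt (limma, adjusted p under 0.05), the number higher came to 354 with array weights, 453 in a fit of all 3 groups, 50 with sex as a covariate and 11 in female arrays only. The number lower came to 548 with arrays centred on their median, 294 with every probe set tested, 412 with array weights, 543 in a fit of all 3 groups, 17 with sex as a covariate and 5 in female arrays only. Leaving out 1 array at a time gave 33 to 354 higher and 16 to 494 lower. The causes were not tested; the sex settings also use fewer arrays. Quantile normalization, a filter on dim genes, the mean of a gene's probe sets and eBayes with trend and robust kept both counts within 1.5 times. Whether replicate numbers pair the samples was not settled by the values. Same-numbered arrays had correlations of deviations of 0.156, -0.147, 0.212 and 0.0564, and 2 of 4 fitted best with their own number. The replicate block gave 257 higher and 269 lower. Against 3aKO (531 higher, 1140 lower) the replicate block gave 884 higher, sex as a covariate 62 and 83, female arrays only 16 and 15, and leaving out 1 array 126 to 509 higher and 364 to 931 lower. Among the named genes the sign turned for 2, neither of them called: the log2 change of Alb was 0.0118 with quantile normalization and ran from -0.0375 to 0.00326 with 1 array left out, and the log2 change of E2f3 was -0.035 with sex as a covariate or in female arrays only. With 4 tumours, 1 of unclear sex, the number of arrays limits the precision.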

Other observations

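Cholesterol synthesis genes had a median of 0.46 above wt with 19 of 20 above 0, yet limma called none and none had an unadjusted p under 0.05. The list medians of single wt livers ran from -1.39 to 0.52, and in the female arrays alone the median was 0.14. Clock genes had a median of -0.45 with 15 of 20 below 0. Of these 20 genes limma called none, and 5 had an unadjusted p under 0.05 (25%, against 20.8% of all genes). Ribosome biogenesis genes had a median of -0.12 with 26 of 29 below 0. Of these 29 genes limma called none, and 3 had an unadjusted p under 0.05 (10.3%, below the share of all genes). Yae1d1, chosen after its values were seen, was called higher than wt (1.42, limma adjusted p = 0.0119), at 8.22, 8.65, 8.56 and 8.73 in the tumours against 6.77 to 8.04 in wt. The 3aKO livers read 8.30 to 8.82 and so overlapped with the tumours.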
